A study of Mus musculus with 12 samples.

Results

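Mitosis is driven by a set of genes whose transcripts build up in G2 and fall after division. They were followed here in cultured mouse helper T cells in which miR-29 was added or blocked. The members were 42 listed mouse genes, chosen by name, and a probe was matched to a gene through the transcript accession given for it on the array. Of the 42 genes 41 were matched and tested, among 14705 genes in all, and Incenp had no matched probe. Where a gene had several probes (15 of the members), the brightest over the 12 arrays stood for it.

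Transcripts were measured with 12 Agilent arrays of the mouse genome, single-colour, 3 for each of 4 groups, in helper T cells of C57BL/6 mice aged 7 weeks. All cells were activated with antibodies to CD3 and CD28 for 65 hours, grown in IL-2 for 48 hours more, electroporated on days 1 and 4, and collected on day 5, 24 hours after the last transfection. DGCR8-deficient cells lack a partner of the nuclease Drosha in microRNA processing, and were given either miR-29b or control miRNA. In the wild type the agents were miR-29 inhibitors or control inhibitors. The cells of each Dgcr8-deficient mouse were divided between both treatments. The 3 mice of each genotype carry the numbers 2, 3 and 4, and equal numbers across genotypes are different mice. The allele, and any Cre that deleted it, are not given in the sources used here. No group combined the deletion with miR-29 inhibitors or the wild type with miR-29b.

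Entry into mitosis is set by cyclin-dependent kinase 1 with A- and B-type cyclins, and by Polo-like and Aurora kinases. The chromosomal passenger complex and the kinetochore then attach chromosomes to the spindle, the spindle checkpoint holds back the anaphase-promoting complex until attachment is complete, and kinesins and the central spindle proteins separate the chromosomes and divide the cell. Many of these genes are transcribed together in G2 through a promoter element called the CHR, often with CCAAT boxes upstream, which are bound by the MuvB complexes and by NF-Y. Activated T cells divide fast, and their mitotic transcripts are abundant. Expression in a bulk culture depends on the share of cells in G2 and mitosis as well as on RNA per cell, and fewer such cells and less RNA per cell cannot be told apart here.

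The mature miR-29 family members are shown because they are the molecules that were added or blocked. Bases 2 to 8 from the 5′ end, the seed, are in capitals. The sequences are those of RefSeq (GRCm38.p6), and the labels do not give the sequences of the transfected reagents.

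mmu-miR-29a-3p: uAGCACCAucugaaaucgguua
mmu-miR-29b-3p: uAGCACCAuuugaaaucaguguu
mmu-miR-29c-3p: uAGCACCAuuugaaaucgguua

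All 3 share the seed AGCACCA. In GRCm38.p6 the mature miR-29a-3p lies at chr6:31062673-31062694 (minus strand), miR-29b-3p at chr6:31063025-31063047 (minus strand) and chr1:195037091-195037113 (plus strand), and miR-29c-3p at chr1:195037600-195037621 (plus strand). The promoters of the members were examined because the members are known to be transcribed together. The RefSeq promoter table (GRCm38.p6) holds windows from 250 bases before to 50 after a gene's start, for 36 of the 42 members. It holds none for Foxm1, Ccna2, Tpx2, Incenp, Kif20a and Aurkb. The CHR, searched as TTTGAA on both strands, was present in 27 of the 36 (75%), against 20.2% of the 27025 genes in the table. The CHR variant TTCGAA was present in 3 of the 36, or 8.33%, against 1.8% of all genes. A CCAAT box, searched as CCAAT on both strands, was present in 28 of the 36 (77.8%), against 41.1% of all genes. Both TTTGAA and CCAAT were present in 24 of the 36, or 66.7%, and in 7.97% of all genes. For the other gene lists, TTTGAA was present in 24 of 63 other mitotic genes (38.1%), 4 of 33 S-phase genes (12.1%), and 7 of 29 G1 regulators and CDK inhibitors (24.1%). In the same order, TTCGAA was present in 11.1%, 6.06% and 3.45% of these lists, and CCAAT in 61.9%, 63.6% and 55.2%. Both TTTGAA and CCAAT were present in 27%, 9.09% and 17.2%. The variant was present in 7 of the 63 other mitotic genes and 3 of the 36 members, and the difference was not tested. A gene with several windows was counted where any of them held the motif. A match is a description of these letters, not a known site.

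The 100 bases before the start are shown for 4 members, with TTTGAA and CCAAT boxes (CCAAT or its complement ATTGG) in capitals. Cdk1 and Prc1 are shown because they passed the test between genotypes, and Cdc20 because it passed in no comparison of treatments or genotypes. Espl1 is shown because it fell with miR-29b only with the mouse as a block. Cdk1 and Prc1 did so as well, but Espl1 did not pass between genotypes. They were chosen after their values were seen.

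Cdk1, chr10:69352913-69353012, minus strand: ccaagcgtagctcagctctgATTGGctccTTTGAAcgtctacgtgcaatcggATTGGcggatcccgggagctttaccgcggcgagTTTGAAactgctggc
Prc1, chr7:80294376-80294475, plus strand: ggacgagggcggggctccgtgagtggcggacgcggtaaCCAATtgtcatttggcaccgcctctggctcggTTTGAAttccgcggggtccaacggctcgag
Espl1, chr15:102296193-102296292, plus strand: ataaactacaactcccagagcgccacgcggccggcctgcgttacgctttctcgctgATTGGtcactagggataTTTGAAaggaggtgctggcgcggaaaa
Cdc20, chr4:118437344-118437443, minus strand: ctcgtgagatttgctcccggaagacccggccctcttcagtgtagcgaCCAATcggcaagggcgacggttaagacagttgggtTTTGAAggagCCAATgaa

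The Cdk1 window held TTTGAA with its first base at -71 and -15, counted from the start, Prc1 at -30, Espl1 at -27 and Cdc20 at -18. For Prc1 the promoter table holds more than 1 start, and from a start other than the one shown TTTGAA was at -5.

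A level is a log2 signal minus the 75th percentile of its array. A change is a difference of log2 levels, given with its standard error (SE) from a limma fit over 14705 genes and all 12 arrays (n = 3 per group). A gene is said to rise or fall where the Benjamini-Hochberg adjusted p was below 0.05. The cells of each Dgcr8-deficient mouse were split, so both its arrays come from the same animal. In the wild type the same was inferred from equal numbers. Each comparison was therefore also fitted with the mouse as a block, and those values are called blocked. Both arrays of each mouse also shared a slide and a scan day, so the block takes in slide and day as well. Levels of different genes cannot be compared. All 41 members were well above background on each array, except that the Plk1 spot of wild-type control mouse 3 was marked as an outlier by the scanner software and its value dropped. Each array had 27287 to 31405 probes well above background, no spot was saturated (0 spots), and the precision is limited by the number of arrays.

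Dgcr8, the deleted gene, had levels of -0.68, -1.19 and -0.10 on the Dgcr8-deficient control arrays and -0.12, 1.04 and 0.24 on the wild-type control arrays. These overlapped, and the difference of -1.04 ± 0.38 did not pass (adjusted p = 0.0777) but passed as blocked (adjusted p = 0.049) and, with the scan day blocked, at 0.00175. Whether its probe lies inside the deleted part is not known. CD4 T cell markers were above background for 7 of 7 genes on all arrays. The B cell markers Cd79a, Cd79b, Ms4a1 and Pax5 had a summed linear signal of 4.04 to 10.1 times the 75th percentile in Dgcr8-deficient cells and 0.280 to 0.481 in wild-type cells, and 3 of 4 (Cd79a, Cd79b and Ms4a1) were higher in Dgcr8-deficient control cells, while Pax5 differed by 0.02 ± 0.35. The genotypes shared some of the 4 slides but not all, and each group had arrays on both scan days. One slide held all arrays of the second scan day, those of mouse 4 of the Dgcr8-deficient and mouse 3 of the wild-type genotype.

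**Figure D1:**
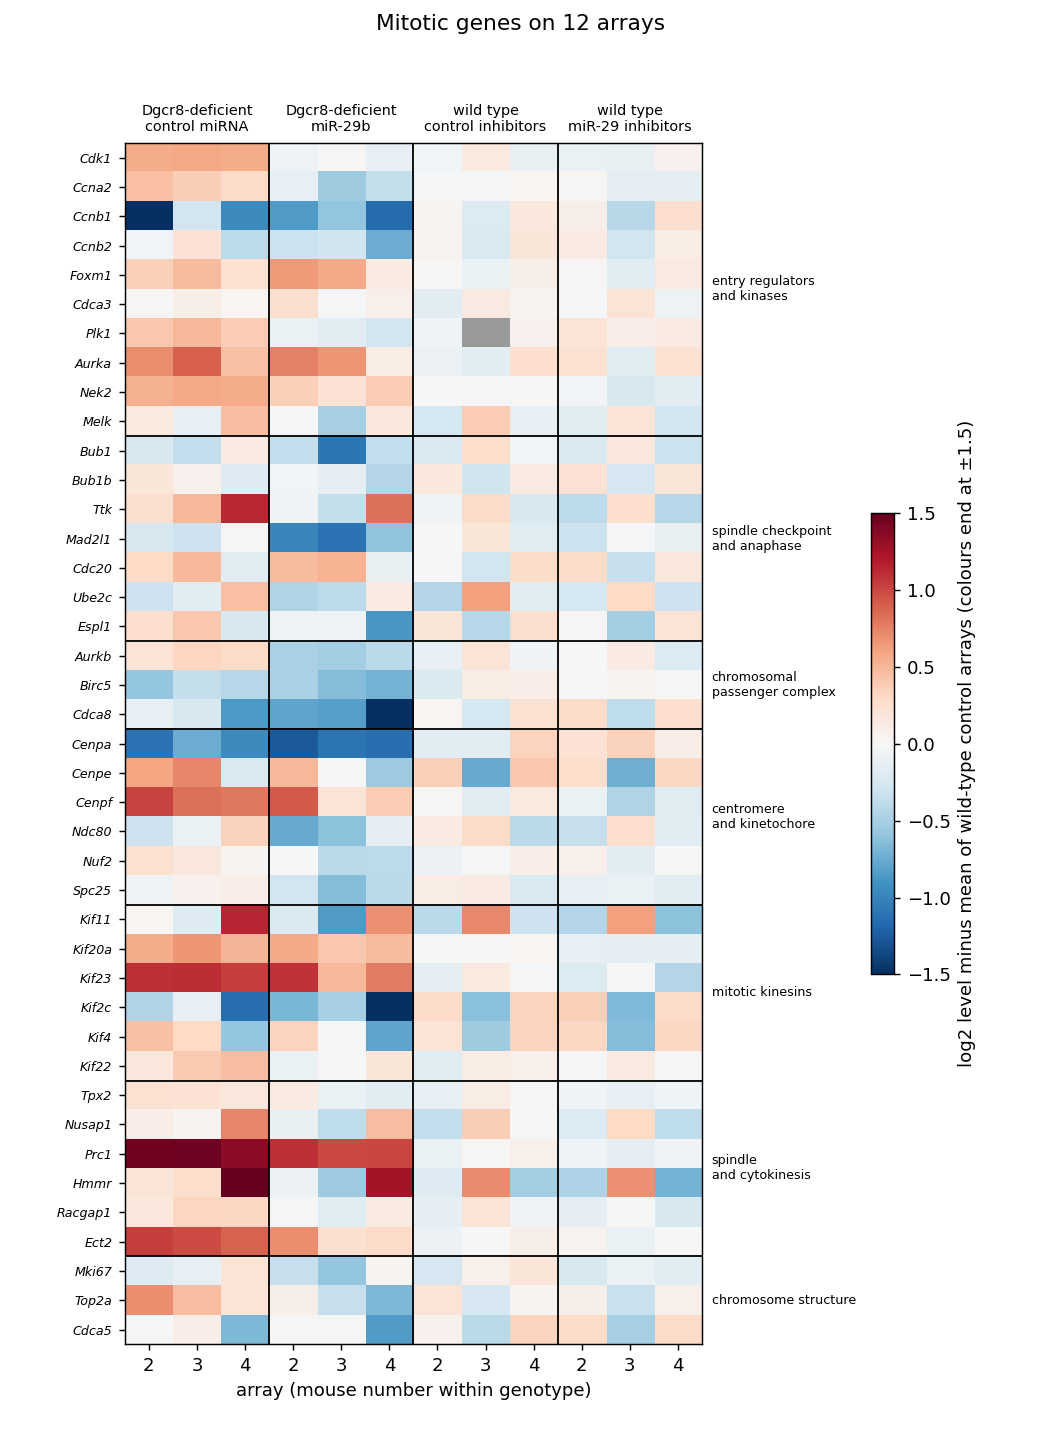
Levels of the 41 measured members on the 12 arrays (columns: group and mouse number), each given as the log2 level minus the mean of the wild-type control arrays, with colours ending at 1.5 in either direction. Genes are grouped by role; Prc1, Kif23 and Ect2 are high in both Dgcr8-deficient groups and Cenpa is low, the grey cell is the Plk1 value dropped, and mouse 4 of the Dgcr8-deficient and mouse 3 of the wild-type groups stand apart in several genes, among them Hmmr and Kif11.

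The first comparison asks what adding miR-29b does to mitotic genes in cells short of their own microRNAs. Aurkb and Ccna2 fell, no member rose and 39 did not pass. Of the 41 members 37 were lower with miR-29b, and their median change was -0.37, against 0.07 over all genes tested, of which 42.1% were lower. Of all genes 1.4% fell and 0.884% rose, 2.28% in all, and with normexp background correction the share of these calls that were higher went from 38.7% to 25.2%. At an unadjusted p below 0.05, 11 members were lower and 0 higher, against 6.9% and 7.07% of all genes. With the mouse as a block 17 members fell and none of the 41 rose, while 10.3% of all genes fell and 10.5% rose. The calls of Aurkb and Ccna2 depended on the setting: 0 members passed without any one Dgcr8-deficient control array, without the miR-29b array of mouse 3 or 4, with normexp, with no filter on dim probes, and when only the Dgcr8-deficient arrays of this comparison were fitted, and without the miR-29b array of mouse 2 only Ccna2 passed. The summed signal of the 7 CD4 T cell markers was 245 to 285 with control and 336 to 386 with miR-29b, without overlap. By gene, 6 of the 7 were higher, 0 passed without the block and 2 rose as blocked. Lck (0.54), Cd3d (0.44) and Cd5 (0.44) differed most, and Cd3e (-0.05) and Cd4 (0.02) least. The summed signal of the B cell markers was 4.90, 4.04 and 9.06 with control and 8.82, 4.95 and 10.1 with miR-29b, higher in each mouse. The part of these markers in the result was not tested.

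Among the regulators of mitotic entry, Ccna2 encodes cyclin A2, which binds the cyclin-dependent kinases in S phase and G2. Its levels were 5.56, 5.48 and 5.39 with control (mice 2, 3 and 4) and 4.99, 4.58 and 4.75 with miR-29b. Every miR-29b array lay below every control array. Its log2 level fell by 0.71 ± 0.15 (adjusted p = 0.0393, blocked 0.00783).

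Cdk1, the kinase that starts mitosis, had levels of 3.98, 4.02 and 3.99 with control and 3.39, 3.45 and 3.31 with miR-29b. The groups did not overlap and lay well apart from the spread within each. The change of -0.61 ± 0.14 missed the threshold (adjusted p = 0.0512) and passed as blocked (0.0129). Plk1, the Polo-like kinase, was at 5.65, 5.75 and 5.62 with control and at 5.15, 5.09 and 4.97 with miR-29b. These did not overlap either, and the change of -0.61 ± 0.14 had an adjusted p of 0.0605 (blocked 0.0146). Nek2, a centrosome kinase, differed by -0.23 ± 0.13 and did not pass with or without the block. Ccnb2, a B-type cyclin, passed as blocked (-0.38 ± 0.22 without the block, blocked adjusted p = 0.0293).

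Ccnb1, Foxm1 and Cdca3 had positive values and did not pass. Ccnb1, the other B-type cyclin, was at 1.46, 3.04 and 2.36 with control and 2.47, 2.73 and 2.17 with miR-29b. Its control array of mouse 2 was far below the others, and the change was 0.17 ± 0.35 (adjusted p = 0.937). The 2 dimmer probes of Ccnb1 gave -0.17 and -0.20, so the sign depends on the probe. Foxm1, the transcription factor of many G2 genes, differed by 0.09 ± 0.18 and Cdca3, a trigger of mitotic entry, by 0.05 ± 0.15. The dimmer probe of Cdca3 gave -0.06, so its sign depends on the probe as well.

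Of 7 checkpoint and anaphase genes 0 passed without the block (1 at an unadjusted p below 0.05), and 2 fell as blocked. Mad2l1 encodes the checkpoint protein that binds Cdc20. It was at 2.63, 2.56 and 2.89 with control and 1.89, 1.76 and 2.28 with miR-29b, without overlap, a change of -0.72 ± 0.19 (adjusted p = 0.0871, blocked 0.00797). Espl1, separase, passed as blocked (-0.48 ± 0.30, adjusted p = 0.567, blocked 0.0176). Cdc20, the activator of the anaphase-promoting complex, was at 6.30, 6.48 and 5.82 with control and 6.47, 6.51 and 5.88 with miR-29b, higher in each mouse and overlapping (0.09 ± 0.26). Bub1, a checkpoint kinase, differed by -0.45 ± 0.25 (adjusted p = 0.486, blocked 0.0608) and Ttk by -0.49 ± 0.34 (adjusted p = 0.627, blocked 0.0545).

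The chromosomal passenger complex held the gene with the smallest adjusted p among the members. Aurkb, its kinase, was at 2.87, 2.99 and 2.96 with control and 2.18, 2.16 and 2.26 with miR-29b. The control arrays lay together, and so did the miR-29b arrays, with a wide gap between. Its log2 level fell by 0.74 ± 0.15 (adjusted p = 0.034, blocked 0.00521). Cdca8, borealin, differed by -0.70 ± 0.31 (adjusted p = 0.34) and fell as blocked (0.0096). Its levels were 5.99, 5.87 and 5.25 with control and 5.32, 5.29 and 4.39 with miR-29b, and the array of mouse 4 was lowest in both groups. Birc5, survivin, differed by -0.17 ± 0.15 and did not pass.

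Of the 6 centromere and kinetochore genes 0 passed without the block (2 at an unadjusted p below 0.05), and Nuf2 and Spc25 fell as blocked. Both are subunits of the NDC80 complex that binds microtubules. Nuf2 was at 3.85, 3.80 and 3.67 with control and 3.63, 3.23 and 3.23 with miR-29b, without overlap (-0.41 ± 0.16, adjusted p = 0.273, blocked 0.0461). Spc25 differed by -0.48 ± 0.16 (adjusted p = 0.183, blocked 0.0407). All 6 were lower with miR-29b.

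Kif11, Kif2c and Kif22 were the kinesins that fell as blocked, and all 6 kinesins were lower. Kif22 binds chromosome arms and differed by -0.31 ± 0.16 (adjusted p = 0.427, blocked 0.0498), which lies at the threshold. Kif11 drives spindle poles apart and differed by -0.46 ± 0.51 without the block (blocked adjusted p = 0.033). Kif2c depolymerizes microtubules and differed by -0.37 ± 0.42 (blocked adjusted p = 0.0336). The other probe of Kif11, which was dim, gave 0.01. Kif23 and Kif20a, motors of cytokinesis, differed by -0.29 ± 0.19 and -0.10 ± 0.13 and did not pass under either fit.

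Of the spindle and cytokinesis genes, Prc1, Ect2 and Hmmr fell as blocked. Ect2, the exchange factor that activates RhoA at the division site, was at 3.73, 3.67 and 3.58 with control and 3.39, 2.94 and 2.98 with miR-29b. The groups did not overlap, and the change was -0.56 ± 0.16 (adjusted p = 0.116, blocked 0.0182). Prc1, which bundles microtubules of the central spindle, differed by -0.39 ± 0.13 (adjusted p = 0.194) and fell as blocked (0.0261). Top2a, the topoisomerase that untangles chromosomes, differed by -0.76 ± 0.24 (adjusted p = 0.151) and fell as blocked (0.00515). Its levels were 4.64, 4.41 and 4.14 with control and 4.04, 3.60 and 3.28 with miR-29b. Mki67, the proliferation antigen Ki-67, differed by -0.26 ± 0.20.

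**Figure D2:**
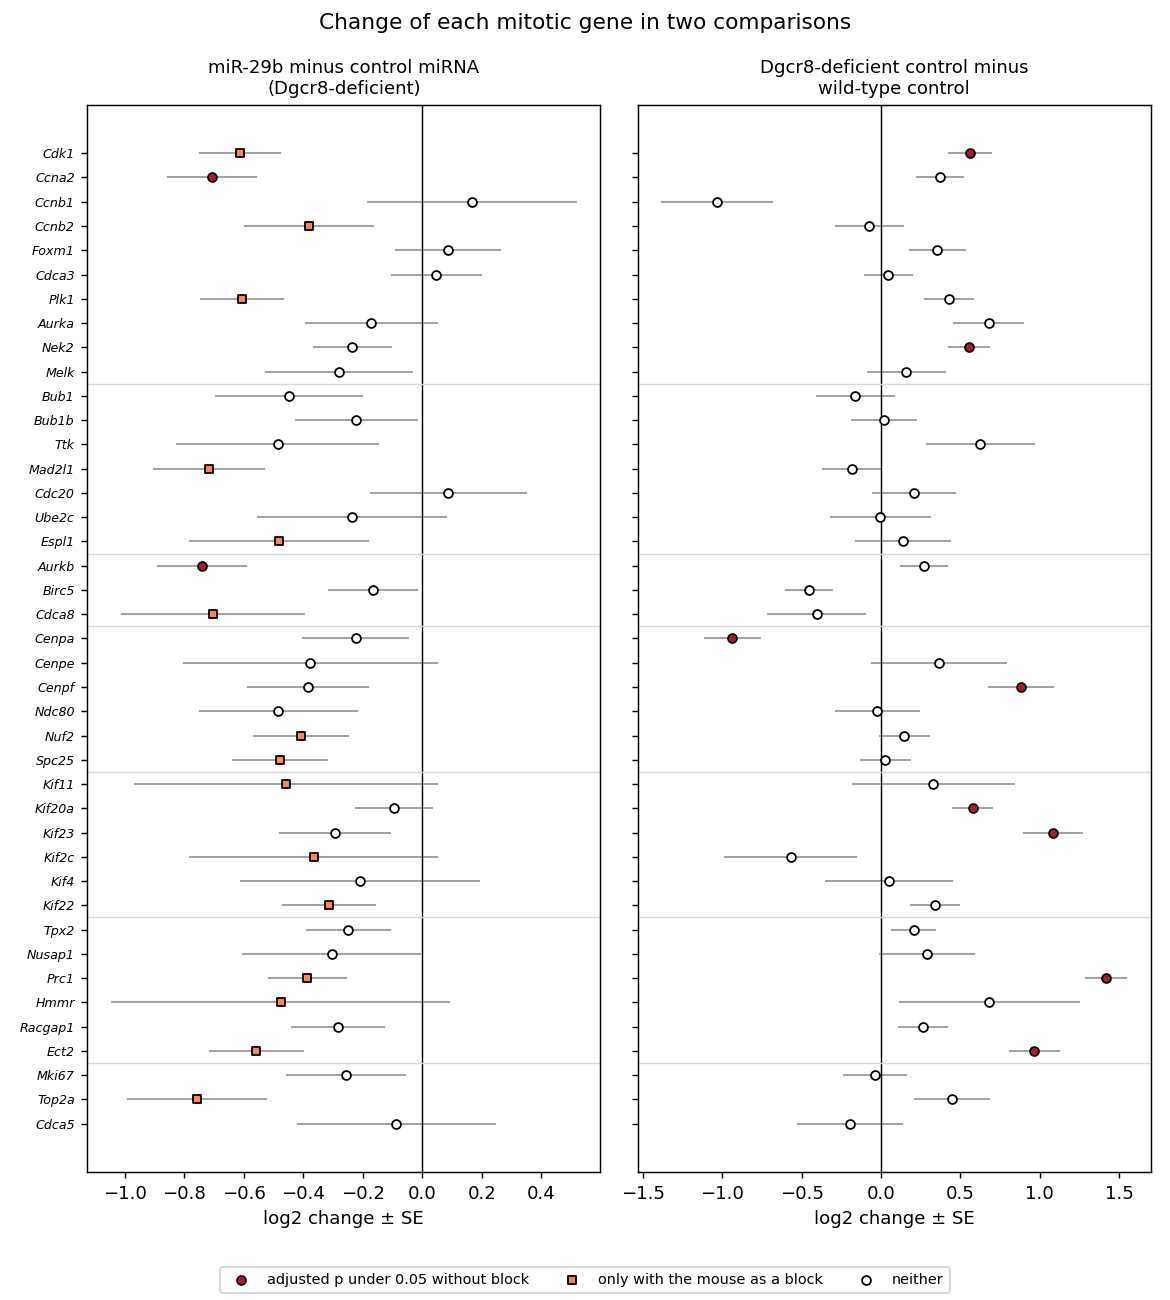
Log2 change ± SE of each of 41 members, n = 3 per group, for miR-29b minus control in Dgcr8-deficient cells (left) and for Dgcr8-deficient control minus wild-type control (right); colours mark members that passed without the block, only with the mouse as a block, or neither. On the left most points lie left of 0, with Aurkb and Ccna2 passing without the block; on the right Prc1 at 1.42 and Kif23 at 1.08 are the highest.

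Within mice the direction was the same in most members. With miR-29b 33, 39 and 39 of 41 members were lower in mice 2, 3 and 4 (40.2%, 47.7% and 43.3% of all genes), at medians of -0.21, -0.47 and -0.33, while all genes had medians of 0.10, 0.02 and 0.07. Of the 41 members 33 were lower in 3 of 3 mice, against 24% of all genes. Of the 41 members, 13 had miR-29b arrays all below the control arrays, against 7.36% of all genes, and 0 lay all above. The miR-29b array of mouse 3 had 1458 outlier-marked spots against 68 to 193 on the other 11 arrays. The member median was -0.26 without both arrays of that mouse.

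The second comparison asks what blocking miR-29 does in wild-type cells. No member passed (0 of 41), and 0% of all genes passed, with or without the block. At an unadjusted p below 0.05, 0 members were found, and of all genes 14 (0.0952%) were lower and 49 (0.333%) higher. The median member change was -0.06, against 0.02 over all genes, and 31 of 41 were lower (all genes 44.8%). For Ccna2 the change was -0.09 and for Aurkb -0.03. Nek2 and Kif20a had inhibitor arrays all below the control arrays (1.13% of all genes), with changes of -0.15 and -0.14. In mouse 2, 16 of 41 members were lower with inhibitors, in mouse 3, 35 of 40, and in mouse 4, 31 of 41, against 40.7%, 46.8% and 49% of all genes.

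**Figure D3:**
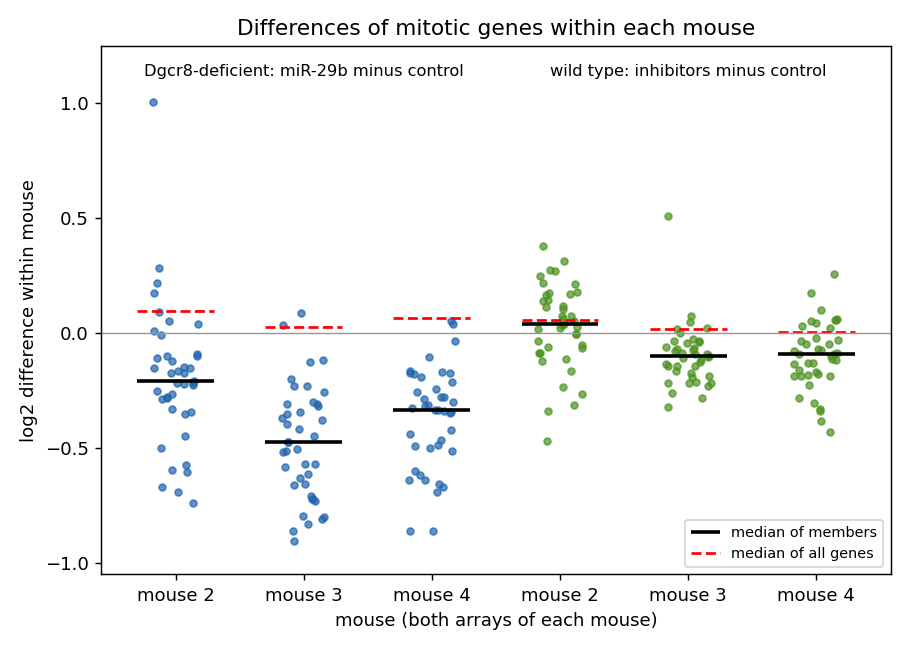
Log2 difference of each member within each mouse (points), for miR-29b minus control in Dgcr8-deficient mice and inhibitors minus control in wild-type mice; black lines are member medians and dashed red lines the medians of all genes. In Dgcr8-deficient mice the member medians lie from -0.47 to -0.21 and in wild-type mice from -0.10 to 0.04.

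The third comparison sets the Dgcr8-deficient control against the wild-type control. It shares the Dgcr8-deficient control arrays with the first, and genotype and the kind of control oligonucleotide cannot be told apart in it. In it 7 members were higher, 1 (Cenpa) was lower, and 33 did not pass. Of all genes 9.51% were higher and 12.4% were lower, so a total of 8 of 41 members lies near the share of all genes called, 21.9%. The median member change was 0.21, against -0.07 over all genes (-0.23 with normexp). The same 8 members passed as blocked. The summed signal of the 7 CD4 T cell markers was 274, 245 and 285 in Dgcr8-deficient control cells. In wild-type control cells it was 288, 317 and 354, without overlap. By gene, 4 of the 7 were lower and 3 higher. Lck passed as lower (-0.65, adjusted p = 0.0438) and Cd28 as higher (1.26, adjusted p = 0.0447). As blocked only Cd28 passed. The 3 NK cell markers were higher, at a median of 1.06, and 0 passed. The B cell markers were higher in sum in the Dgcr8-deficient cells, as given above, and the summed signal of 6 myeloid markers was 0.264 to 0.461 in Dgcr8-deficient control cells and 0.718 to 1.34 in wild-type control cells. Of the 5 myeloid markers tested Adgre1 (-2.70) and Fcgr3 (-2.21) were lower and 0 were higher, and Itgam, Cd14 and Csf1r, at 0.48, 0.22 and -0.13, did not pass. The part of all these cell type markers in the result was not tested.

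Prc1 was the largest difference among the members. It was at 5.97, 5.98 and 5.86 in Dgcr8-deficient control cells and 4.42, 4.53 and 4.60 in wild-type control cells. The genotypes did not overlap, and the change was 1.42 ± 0.13 (adjusted p = 6.23e-05). Kif23, also of the central spindle, was at 3.72, 3.74 and 3.67 against 2.49, 2.78 and 2.61, higher by 1.08 ± 0.19 (adjusted p = 0.00242). Ect2 was higher by 0.97 ± 0.16 (adjusted p = 0.00175), and its other probe gave 0.61, so that with the mean of its probes it did not pass (0.79, adjusted p = 0.125). Racgap1, also of cytokinesis, differed by 0.26 ± 0.16 and did not pass, and its other probe gave -0.13.

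Cenpf, a kinetochore protein of G2 cells, was at 4.50, 4.31 and 4.28 against 3.50, 3.31 and 3.63 and was higher by 0.88 ± 0.21 (adjusted p = 0.0112). Without the second scan day Cenpf did not pass (0.84, adjusted p = 0.0648). Cdk1 was higher by 0.56 ± 0.14 (adjusted p = 0.0153) and did not pass without the wild-type control array of mouse 2 (0.056) or mouse 4 (0.0641). Passing members also included Nek2, higher by 0.55 ± 0.13 (adjusted p = 0.0128), and Kif20a, by 0.58 ± 0.13 (adjusted p = 0.00942). Kif20a lay at 5.11, 5.22 and 5.07 against 4.53, 4.56 and 4.59, with no overlap. Cenpa, the centromeric histone, went the other way, at 2.19, 2.55 and 2.34 against 3.13, 3.13 and 3.63, lower by -0.94 ± 0.18 (adjusted p = 0.00408).

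Ccnb1 was at 1.46, 3.04 and 2.36 in Dgcr8-deficient control cells and 3.37, 3.12 and 3.47 in wild-type control cells. These did not overlap, but the difference of -1.03 ± 0.35 did not pass (adjusted p = 0.0617), and passed without the control array of Dgcr8-deficient mouse 3 (-1.41, adjusted p = 0.0125). Without the control array of Dgcr8-deficient mouse 2, the lowest, the difference was -0.62 (adjusted p = 0.186). Its other probes gave -0.22 and -0.39. Birc5 differed by -0.45 ± 0.15 and also did not pass (adjusted p = 0.0582), but passed without the wild-type control array of mouse 2 (adjusted p = 0.0475). By group order 13 members were all higher (15.4% of all genes) and 3 all lower (21.2%) in the Dgcr8-deficient control arrays. With the scan day as a block 20 members passed, and 23.6% of all genes were then lower and 16.1% higher. Cdk1, Nek2 and Kif20a did not pass when only the arrays compared were fitted. On the 2 slides holding both genotypes, 11 of 41 and 13 of 40 members were lower in Dgcr8-deficient control cells, at medians of 0.30 and 0.11.

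The values of Cdk1, Ect2 and Prc1, picked because they passed between genotypes and, with miR-29b, only as blocked, stand side by side. The Dgcr8-deficient control arrays enter both comparisons, with opposite signs. Noise in those arrays alone moves the changes in opposite directions, so no reversal can be read from the signs. Cdk1 was 0.56 higher without Dgcr8 and differed by -0.61 with miR-29b, Ect2 by 0.97 and -0.56, and Prc1 by 1.42 and -0.39. With miR-29b, Cdk1 was at 3.39, 3.45 and 3.31, against 3.40, 3.58 and 3.32 in wild-type control cells, which overlap. Prc1 was at 5.62, 5.51 and 5.52, above each wild-type control array. These differences from the wild type were not tested.

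**Figure D4:**
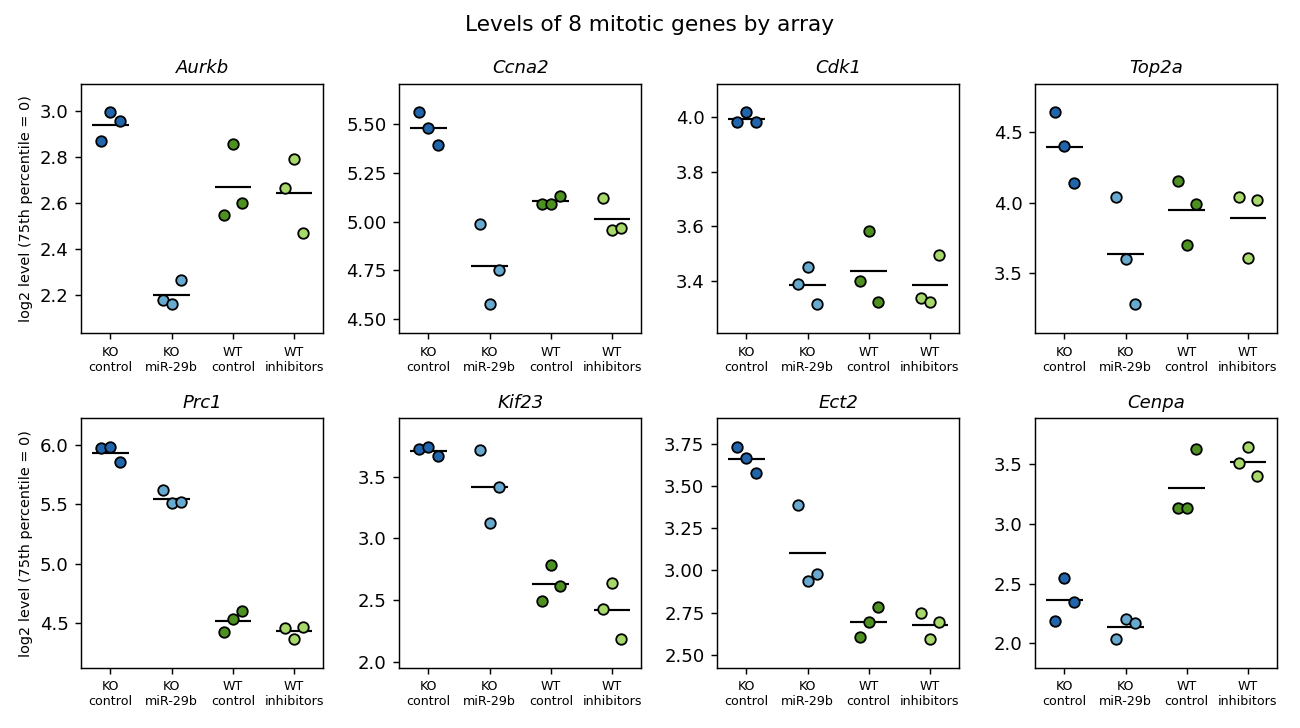
Log2 levels (75th percentile of each array set to 0) of 8 members by array, 3 arrays per group, KO for Dgcr8-deficient and WT for wild type, with the group mean as a line. Aurkb, Ccna2, Cdk1 and Top2a are lower with miR-29b than with control, and Prc1, Kif23 and Ect2 are higher and Cenpa lower in both Dgcr8-deficient groups than in the wild type.

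The difference between the effect of miR-29b and that of the inhibitors was tested directly. No member passed (0 of 41), and 0.17% of all genes passed as lower. At an unadjusted p below 0.05, 5 members were lower and 0 higher, against 4.19% and 3.03% of all genes. As blocked, Aurkb (adjusted p = 0.0324), Cdca8 (0.0431) and Top2a (0.0343) passed, with differences of -0.71, -0.75 and -0.70, against 3.94% of all genes.

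Members also differed between scan days. Relative to the first day, 9 members were higher and 12 lower on the second day (limma, adjusted over all genes), or 51.2% of members, against 43.1% of all genes (16.1% higher and 26.9% lower). This fit took both arrays of a mouse as independent, so its SEs and p-values are too small. With the mouse as a random block, a fit added after seeing the data, 7 members were higher and 11 lower, or 43.9%, against 31.6% of all genes. The second day held 1 slide and 2 mice, 1 of each genotype, against 4 mice on the first day, so day, slide and mouse cannot be told apart. With that block Hmmr, a spindle protein, was higher by 1.31 ± 0.16 and Kif11 by 1.16 ± 0.14, and Ttk and Ube2c were higher by 0.72 and 0.69. Cenpe, a kinetochore kinesin, was lower by -0.96 ± 0.14, Kif2c by -0.95 and Kif4 by -0.92. On Hmmr the second-day arrays were at 1.72, 1.37, 0.83 and 0.80 and the first-day arrays of each group lay below their own group's second-day array. The genes named here were picked by the sign and size of this difference, so their opposite directions follow from the choice.

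**Figure D5:**
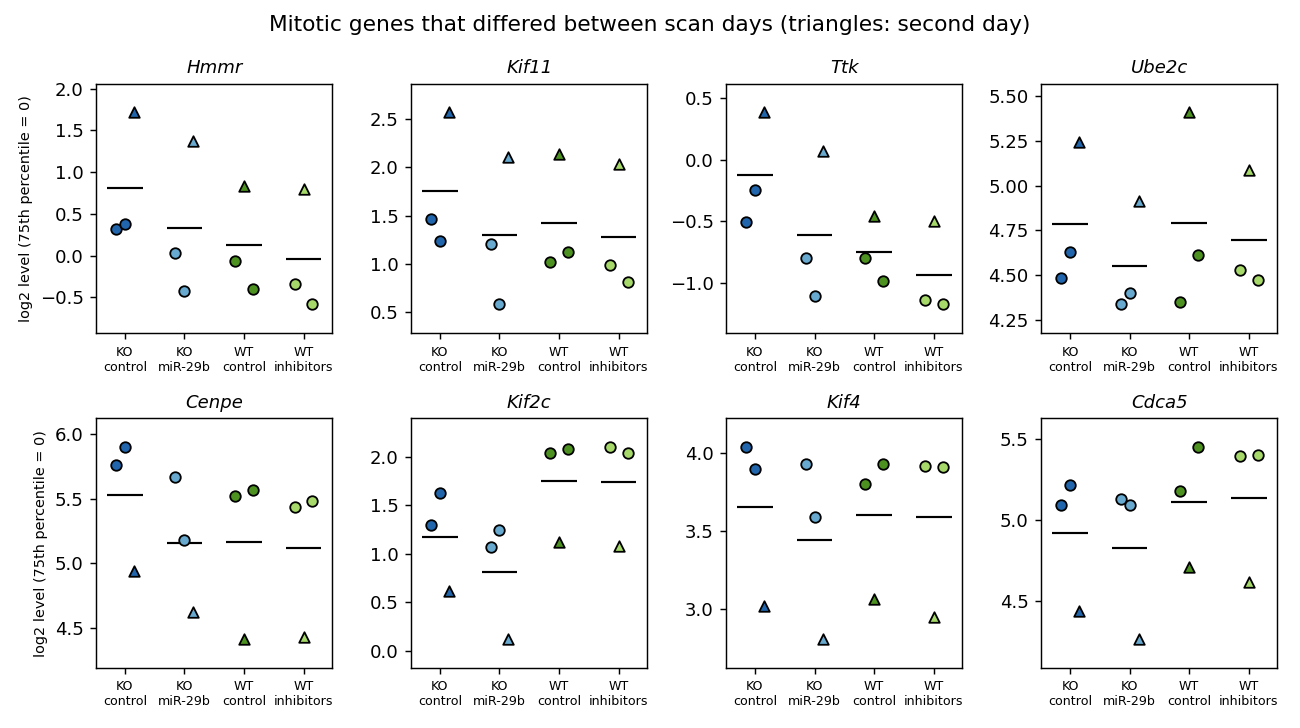
Log2 levels of 8 members that differed between scan days, by group, with triangles for arrays of the second day and circles for the first, and the group mean as a line. Hmmr, Kif11, Ttk and Ube2c are higher and Cenpe, Kif2c, Kif4 and Cdca5 lower on the second day in each of the 4 groups.

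Other cell cycle genes give the setting. With miR-29b 1.4% of all genes fell, 0.884% rose and 42.1% were lower. As blocked, 10.3% of all genes fell and 10.5% rose. With miR-29b 5 of 71 other mitotic genes fell and 0 rose (median -0.24): Lmnb1, lamin B1 (-1.23 ± 0.16), Cdc23, an anaphase-promoting complex subunit (-1.27 ± 0.17), Asf1b, a histone chaperone (-0.84), Cdc25b, a phosphatase that activates Cdk1 (-0.94), and Cenpm (-0.75). As blocked 23 fell and 1 rose. Of 37 G1 regulators and CDK inhibitors, 2 fell: Mybl2, B-Myb, a MuvB partner at G2 promoters (-1.54 ± 0.30), and Cdkn2c, an inhibitor of Cdk4 and Cdk6 (-0.76 ± 0.16). As blocked 13 fell and 2 rose. Of 40 S-phase genes 1 fell, Rfc5, a clamp loader subunit (-1.12 ± 0.18), all 40 were lower, and the median was -0.50; as blocked 24 fell. Wild-type cells with inhibitors had 0 calls in these lists. In the genotype comparison, where 9.51% of all genes were higher and 12.4% lower, 0 of 40 S-phase genes were higher and 5 lower (Rfc5, Gins4, Gins3, Uhrf1 and Rrm2), the latter near the share of all genes. Among 37 G1 regulators and CDK inhibitors 7 were higher, led by Ccnd3 (1.97), Btg2 (1.85), Ccnd2 (1.60) and Cdkn1a (1.31), and 6 lower, led by Cdkn1c (-1.54), E2f5 (-1.52), Tfdp2 (-1.26) and Rbl2 (-1.11). Of 71 other mitotic genes 8 were higher, led by Anln (1.86) and Psrc1 (1.53), and 9 lower, led by Pttg1 (-1.99), both near the shares of all genes.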

How the data were processed

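Per the file headers, Agilent Feature Extraction 10.5.1.1 gave the deposited spot intensity, background-subtracted. The authors also deposited log2 values, for which the submitters' processing notes name limma; further steps are not given in the sources used here. Intensities were converted to log2 here, outlier-marked spots left out, spots averaged per probe, and the array's 75th percentile over probes subtracted. That percentile can be taken in several ways: 10 versions (5 definitions, outlier-marked spots left out or kept) were run while call counts were visible, and the one matching an earlier description of these data was kept. The first version used took it over non-control spots. Across the 10, 320 to 338 genes and 2 to 3 members passed in the miR-29b comparison.

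Probes well above background on at least 3 of 12 arrays were kept (32200 of 41174). The fits used limma 3.58.1 (R 4.3.3), Benjamini-Hochberg adjusted over 14705 genes, threshold 0.05, and tested on simulated data. Normexp (offset 50) used median spot and background signals in place of the planned mean signals. Members, lists and motifs were chosen with earlier results of these data known. Named members were those past the threshold, those with the smallest p in each role, those positive with miR-29b and the dimmest and brightest; others, and the promoters and scan-day genes shown, were chosen after their values were seen. Residuals of both arrays of a mouse correlated at 0.613 to 0.753 (Dgcr8-deficient) and 0.430 to 0.722 (wild type); the design text says that each Dgcr8-deficient mouse's cells were split, so the mouse was used as a block, by duplicateCorrelation in the genotype comparison. One marker gene is not reported here, and the marker sums leave it out.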

Additional observations from a re-analysis of the deposited data

How the results depend on the processing

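The count of members past the threshold with miR-29b, 2, was 0 with normexp, with no filter on dim probes, with only the arrays compared, without both arrays of Dgcr8-deficient mouse 3 and without the second scan day, 4 with the authors' values, 17 with the replicate block (mouse), 14 with slide and 12 with scan day as a block, and 0 to 1 leaving out single arrays. Over all genes the mouse block called 10.3% lower and 10.5% higher, slide 8.5% and 8.19%, and scan day 6.85% and 5.66%. With the authors' values 353 genes were lower and 218 higher. The median member change with miR-29b stayed negative in all 20 alternatives, from -0.39 to -0.25. In the genotype comparison the count of 8 became 13 with the authors' values, 21 with slide and 20 with scan day as a block and 5 with only the arrays compared; the median of 0.21 was 0.25 with normexp, 0.30 with quantile normalization, 0.30 with the authors' values, 0.25 without the second scan day and 0.15 to 0.31 leaving out single arrays. Between genotypes slide called 24.7% of all genes lower and 17% higher, and scan day 23.6% and 16.1%. With the authors' values 2011 genes were lower and 1494 higher. The miR-29b effect minus the inhibitor effect had 3 members past the threshold with the mouse block, 3 with slide and 2 with scan day. Of all genes these blocks called 3.94%, 2.92% and 2.25% lower and 2.02%, 1.29% and 0.782% higher. Aurkb passed in 7 of 20 alternatives and Ccna2 in 10 of 20. The mouse block kept all 8 calls between genotypes and changed no call in the inhibitor comparison, which had 0 in all 19 alternatives. The scan day left out and the percentile over non-control spots were chosen after seeing the data; the latter gave 2, 0, 8 and 0 members in the 4 comparisons, and over all genes 149 higher and 175 lower with miR-29b, against 130 and 206. The cause of these changes was not tested.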
